A study of Homo sapiens with 24 samples.

Results

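The receptor tyrosine kinases outside the ERBB family were read in neratinib-resistant and parental cells of 2 human cancer lines. Members were 45 gene symbols, chosen by name but with earlier results of these data known. Of these, 44 were found among the 39786 genes of the count table, and NTRK3 was not analysed here. Messenger RNA of 24 libraries was sequenced, 3 in each of 8 groups. In the bladder carcinoma line 5637, the groups were neratinib-resistant cells (5637NR) given 600 nM neratinib for 24 h (NR neratinib), 5637NR cells without it (NR control), parental 5637 cells given the same dose and time (parental neratinib), and parental cells without it (parental control). The ovarian carcinoma line OVCAR8 had the same 4 groups, with OVCAR8NR cells and 1 µM neratinib for 24 h. All NR cells had been off the drug for 1 week before they were seeded, which both NR groups of a line share. Neratinib is an irreversible inhibitor of the EGFR, ERBB2 and ERBB4 kinases. Each line was represented by 1 resistant derivative, and the labels do not say whether it was a clone. The 3 libraries of a group were dishes seeded in triplicate, which may be technical replicates of 1 culture, so p-values measure only the spread between these dishes. Line and dose cannot be told apart, since each line had a dose of its own.

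Receptor tyrosine kinases span the cell membrane, bind a ligand outside the cell and pass the signal on through an intracellular kinase domain. Ligand binding brings receptor chains together, which then phosphorylate each other and recruit adaptors that feed the RAS-MAPK and PI3K-AKT pathways. Because ERBB receptors feed the same pathways, a receptor of another family that keeps them active while ERBB kinases are inhibited is called a bypass receptor. Only transcripts were measured here, not protein or phosphorylation.

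The promoters of EPHA2 and FLT1 are shown first, because both members stood over 2-fold higher in 5637 NR cells and fell on neratinib in both states of that line. They were also the members whose RefSeq promoter window (250 bases before to 50 after the start, GRCh38.p14, 42 members matched) holds the letters of the cyclic AMP response element. FGFR4 and STYK1 showed the same pattern of expression. FGFR4 had a window without this element, and STYK1 had no matching window. Each line below gives the 100 bases directly before the annotated start, read 5′ to 3′ on the minus strand, with the element TGACGTCA in capitals. The build differs from hg19, on which reads were counted.
EPHA2, chr1:16156070-16156169: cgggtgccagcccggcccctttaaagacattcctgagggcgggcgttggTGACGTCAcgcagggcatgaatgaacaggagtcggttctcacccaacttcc
FLT1, chr13:28495129-28495228: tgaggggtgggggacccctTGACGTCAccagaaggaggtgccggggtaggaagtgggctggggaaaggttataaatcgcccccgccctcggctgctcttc
The element lies 51 to 44 bases before the start in EPHA2 and 81 to 74 bases before it in FLT1. Searched on both strands, TGACGTCA was present in 1.85% of 35116 promoter windows. The 42 matched members had 72 windows between them. The other motifs searched were the AP-1 site TGACTCA (4.95% of windows; CSF1R, DDR1 and DDR2), the forkhead site TGTTTAC (3.42%; AXL, NTRK2 and TEK), the ETS site CCGGAAGT (4.14%; no member), the amino acid response element TGATGCAA (0.866%; DDR2) and the E-box CACGTG (7.26%; FGFR4, MET and ALK). The motifs were chosen after the expression values were seen, and a match describes letters only.

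Of the 44 members, 37 reached a group mean of 1 CPM (counts per 1000000 of the library total) in at least 1 group, 32 of them in 5637 and 29 in OVCAR8. Both lines shared 24, and 19 reached 1 CPM in all 8 groups. In 5637 only, 8 were expressed (FGFR2, FLT1, NTRK2, DDR1, LTK, ROS1, EPHA1 and EPHB6) and in OVCAR8 only 5 (FLT4, RET, TIE1, EPHA5 and EPHB1). DDR1 stands there through its chromosome 6 entry alone. Summed over its entries it reached group means of 23.8 to 31.8 CPM in 5637 and 10.5 to 16.7 CPM in OVCAR8, which makes 30 members expressed in OVCAR8. The other 7 stayed below 1 CPM in every group. They were PDGFRA (highest group mean 0.233 CPM), KIT (0.315), CSF1R (0.719), ALK (0.201), TEK (0.2001), EPHA3 (0.927) and EPHA7 (0.483). A limit of 0.5 CPM gave 39 expressed members, adding CSF1R and EPHA3, and a limit of 2 CPM gave 35, without RET and the chromosome 6 entry of DDR1.

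**Figure D1:**
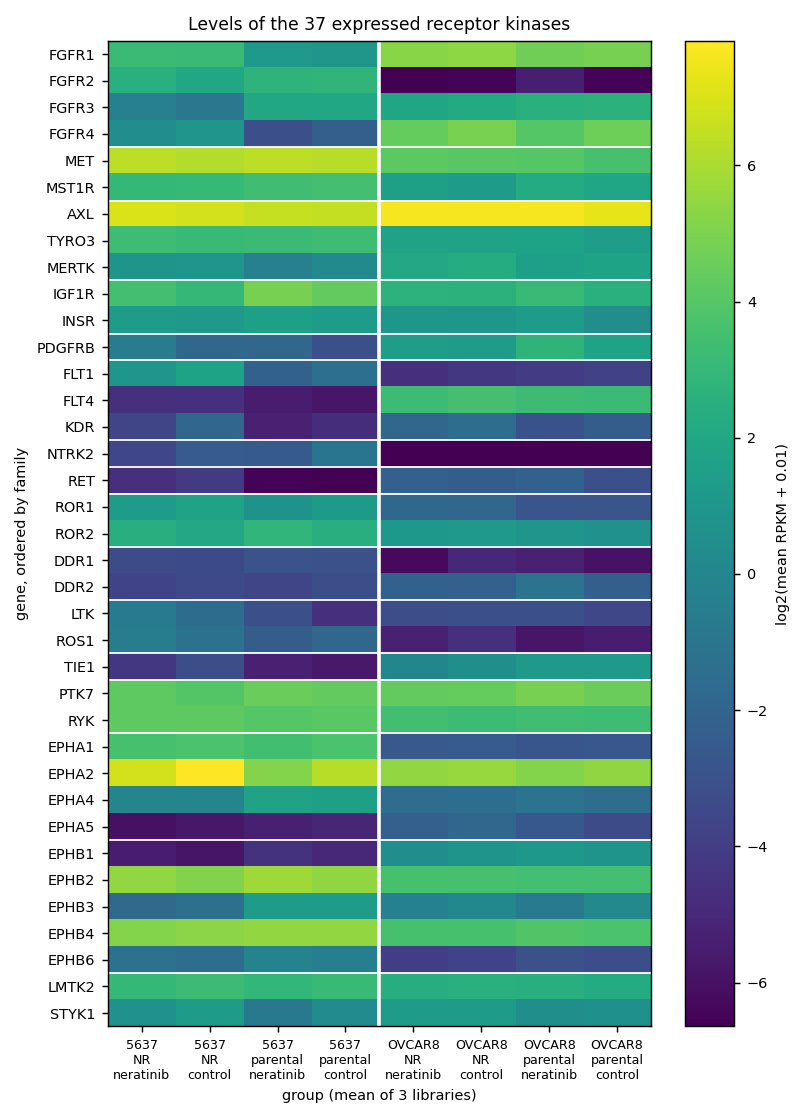
Mean level of the 37 expressed members in the 8 groups, as log2 of RPKM (CPM per kilobase of gene) plus 0.01, one row per member and 3 libraries per group. AXL, EPHA2 and PTK7 are bright in every column, FLT1, NTRK2 and ROS1 are brighter in 5637, and FLT4, EPHB1 and TIE1 are brighter in OVCAR8.

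Per length, AXL, a receptor for GAS6, had the highest level of the members in parental control cells of both lines, at 160.0 ± 27.2 RPKM in OVCAR8 and 91.2 ± 4.84 RPKM in 5637 (mean ± SD, n = 3). In OVCAR8 it was followed by EPHA2 at 43.2 ± 4.34, FGFR1 at 29.4 ± 4.67, FGFR4 at 24.9 ± 3.92 and PTK7 at 23.5 ± 2.42 RPKM. The last 3 overlapped within 1 SD of their means. Library by library, FGFR1 stood above PTK7 in each, and FGFR4 stood above FGFR1 or PTK7 only in parental control replicate 2. In 5637 the next were MET at 76.9 ± 2.27 and EPHA2 at 76.6 ± 2.54 RPKM, which did not differ beyond their spread, then EPHB4 at 44.8 ± 0.645 and EPHB2 at 43.2 ± 1.39 RPKM. In OVCAR8, 1 of the 3 libraries stood apart.

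Library totals ran from 23.8 to 48.5 M counts. Parental control replicate 2 of OVCAR8 (below, replicate 2) held 14.07% of its counts in genes over 8 kb, against 20.38% to 21.22% in the other OVCAR8 libraries. Among 22 members with a mean of at least 5 CPM over replicates 1 and 3, replicate 2 was below both in 19. It was above both in 3 (TYRO3, EPHB4 and FGFR4). For these 22, the ratio of replicate 2 to the mean of replicates 1 and 3 had a median of 0.803. It ran from 0.345 for LMTK2 to 1.3 for FGFR4. That limit left out EPHB3, at 5.86 CPM in replicate 2 beside 4.49 and 4.675 CPM in the others. OVCAR8 comparisons in which a member gains a call without replicate 2 are given both ways. Other OVCAR8 fold changes include replicate 2 unless stated. A low value there can enlarge increases over parental control and shrink or reverse decreases, and a high value can do the opposite. Of 11 urothelial markers, 9 reached 1 CPM in 5637 (not UPK1A and UPK3A), with a summed level of 1540 to 1650 CPM in NR neratinib, 826 to 872 in NR control, 5080 to 5390 in parental neratinib and 4760 to 4870 in parental control. Of 10 ovarian carcinoma markers, 4 did so in OVCAR8, PAX8 among them, and 6 in 5637, where MUC16 was the highest at a group mean of 369 CPM. In OVCAR8, MUC16, EMX2, SOX17, MECOM, ESR1, CLDN6, CDH1 and KRT19 stayed below 1 CPM. PTPRC, PECAM1, CDH5, VWF, DCN and COL3A1 were below 1 CPM in both lines. Other marker sums also moved with resistance. In OVCAR8 the 10 ovarian markers summed to 296 to 337 CPM in NR control and 434 to 549 CPM in parental control, and 6 pan-epithelial markers to 2570 to 2750 CPM and 4370 to 6580 CPM. In 5637 NR control the pan-epithelial sum was 4660 to 5070 CPM, against 9410 to 10100 CPM in parental control. The ovarian sum was 189 to 208 CPM against 275 to 407 CPM. Single markers did not all follow their sum there. PAX8 averaged 44.2 against 12.1 CPM, WT1 31.7 against 7.26 CPM and EPCAM 275 against 201 CPM. KRT7, at 1500 against 2710 CPM, and CDH1, at 174 against 284 CPM, were lower, as their sum was. The urothelial sum was mostly KRT5, at 547 against 3950 CPM. The part of these marker levels in the member results was not tested.

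**Figure D2:**
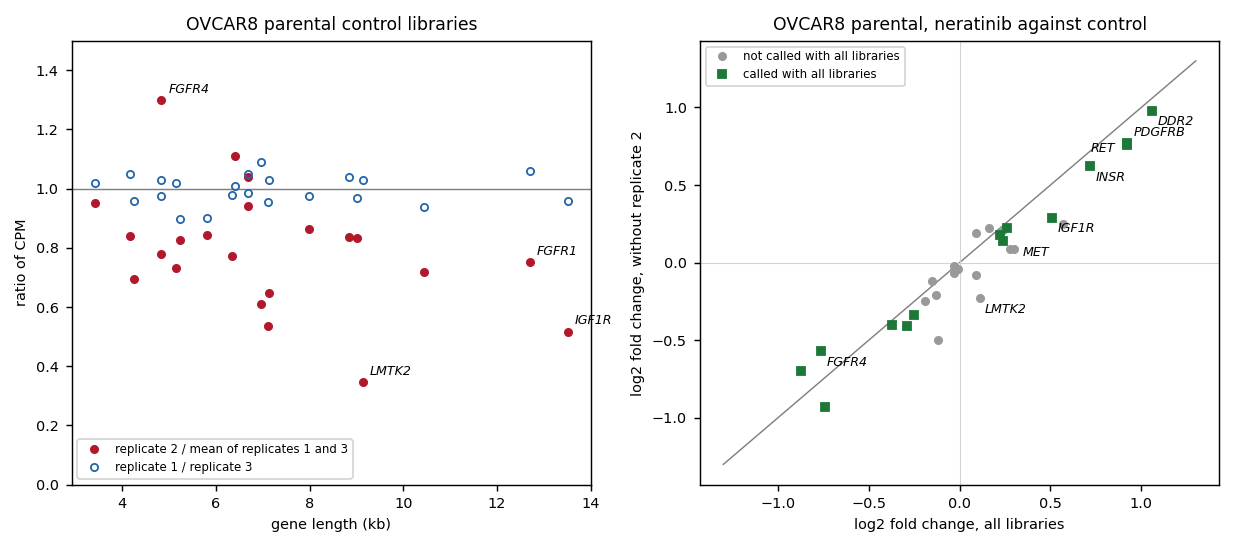
Left, ratio of replicate 2 of OVCAR8 parental control to the mean of replicates 1 and 3, against gene length in kb. It shows 22 members averaging at least 5 CPM in replicates 1 and 3, with the ratio of replicate 1 to replicate 3 beside it. Right, log2 fold change of OVCAR8 parental neratinib over control with all libraries and without replicate 2; the ratio of replicate 2 runs from 0.345 to 1.3, that between the other libraries from 0.898 to 1.09.

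The question of the resistant lines was which receptors differed between NR and parental cells, off and on the drug. In 5637 the members moved both ways, by large amounts. Off the drug, 17 of 40 tested members were higher and 16 lower in NR control than in parental control cells (edgeR quasi-likelihood test, Benjamini-Hochberg adjusted p under 0.05), 82.5% of them, where 56.5% of all 18307 genes tested passed. At 2-fold or more, 12 were higher, beside 9.73% of all genes, and 7 lower, beside 7.85%. The median log2 fold change was 0.06 over the members and 0.00 over all genes, so the members had no common direction. On the drug, 15 members were higher and 14 lower in NR neratinib than in parental neratinib cells, beside 58% of all genes called. There 13 were higher by 2-fold or more, beside 8.85% of all genes, and 7 lower, beside 8.44%. The filter on low counts lets in a gene that is high in only 1 group (RET, KDR and LTK are such cases), so these shares describe the tested members and not all members. In bulk RNA, fewer cells with a transcript and less of it per cell cannot be told apart.

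In OVCAR8, fewer members differed and by less. Off the drug, 8 of 36 tested members were higher and 4 lower in NR control than in parental control cells, beside 9.84% of all 18072 genes called, with a median of 0.22 over the members and -0.01 over all genes. Without replicate 2, 13 of 38 were higher and 6 lower, beside 22.8% of all genes, and without NR control replicate 3 only 7 were called. On the drug, 7 were higher and 8 lower in NR neratinib than in parental neratinib cells, beside 31% of all genes, and without replicate 2 they were 11 and 10, beside 55.5%.

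Neratinib for 24 h also moved members of both lines. In parental 5637 cells 5 of 40 tested members were higher and 13 lower on neratinib, beside 47.3% of all genes called, a share near that of the members (45%). In NR 5637 cells 8 were higher and 12 lower, beside 39.5%. In parental OVCAR8 cells 8 of 36 were higher and 6 lower on neratinib, beside 32.5% of all genes. That count rests on few libraries, being 20 without replicate 2 (beside 49.2%), 7 without any 1 of the 3 parental neratinib libraries and 9 without parental control replicate 1. In NR OVCAR8 cells TIE1 alone was called, as lower, beside 1.39% of all genes called and 0.747% called lower. It was not called without NR neratinib replicate 1 (adjusted p = 0.05). Without replicate 2, 2 members were higher and 10 lower there, beside 21.3%.

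**Figure D3:**
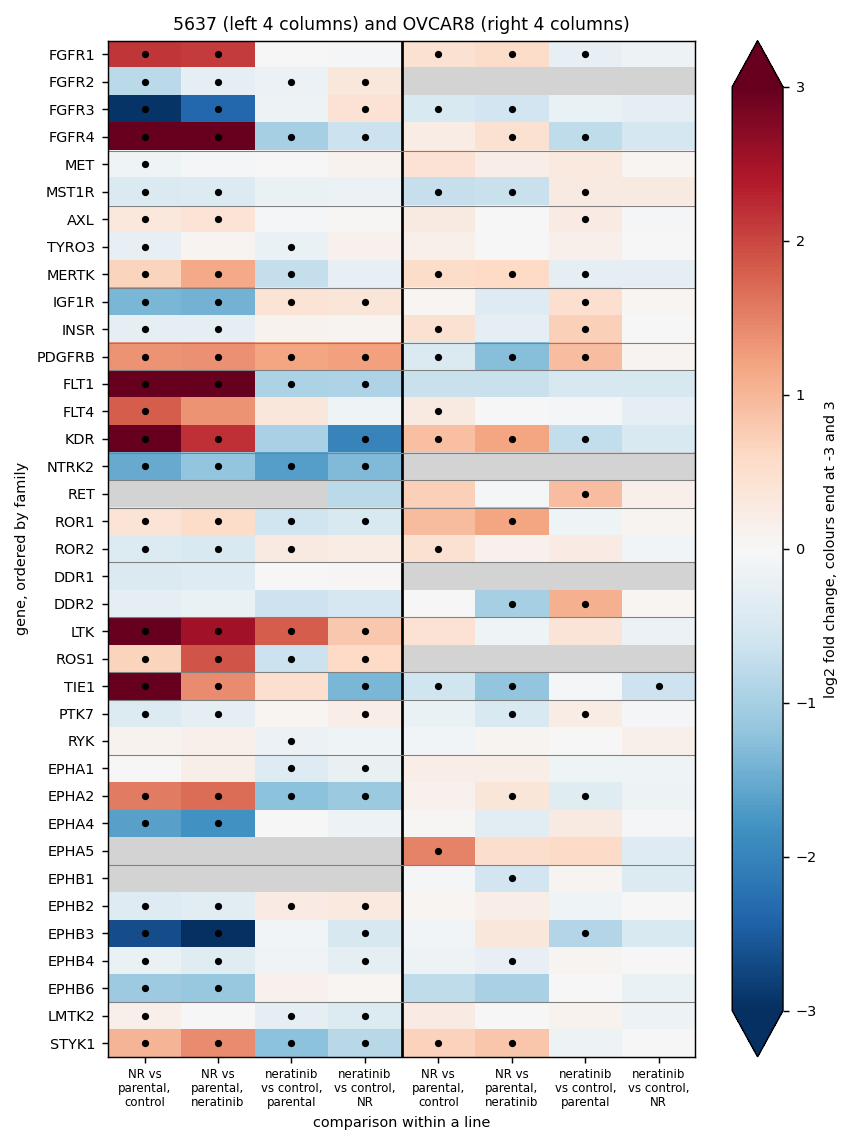
Log2 fold change of each expressed member in 8 comparisons, 5637 in the left 4 columns and OVCAR8 in the right 4, blue to red with colours ending at -3 and 3. Black dots mark adjusted p under 0.05, and grey cells were not tested or have no fold. Grey cells carry no dot, also those of RET in 5637 NR over parental cells, which were called higher off and on the drug. The 5637 NR columns hold the deepest colours, with FLT1 at 3.14 and FGFR3 at -2.95 in NR control over parental control cells.

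The FGF receptors bind fibroblast growth factors together with heparan sulphate. In 5637NR cells FGFR1 and FGFR4 were higher and FGFR2 and FGFR3 lower than in parental cells. FGFR1 (ENSG00000077782.15, hg19 chr8:38268656-38326352), a receptor of FGF2, stood in 5637 at 127, 112 and 122 CPM in NR neratinib, 110.4, 105 and 123 CPM in NR control, 28.2, 27.3 and 27.2 CPM in parental neratinib and 26.5, 25.0 and 24.2 CPM in parental control. Every NR library lay above every parental library, with a log2 fold change of 2.14 ± 0.08, adjusted p = 2.5e-12 (± SE; edgeR) off the drug and 2.09 ± 0.08, adjusted p = 4e-12 on it. The drug itself gave 0.02 (adjusted p = 0.85) in parental and -0.03 (adjusted p = 0.77) in NR cells. In OVCAR8, where it was higher to begin with, FGFR1 stood at 482, 465 and 485 CPM in NR neratinib, 537, 528 and 515 CPM in NR control, 333, 346 and 322 CPM in parental neratinib and 419, 306 and 395 CPM in parental control. The NR groups again lay above the parental groups without overlap, by 0.46 ± 0.08, adjusted p = 0.0028 off the drug and 0.55 ± 0.08, adjusted p = 0.00027 on it. Its decrease on neratinib in parental OVCAR8 cells (-0.25 ± 0.08, adjusted p = 0.027) was not called without any 1 of 5 libraries (adjusted p up to 0.1). The change in NR cells, at -0.16 (adjusted p = 0.4), was called only without replicate 2 at -0.17 (adjusted p = 0.0015).

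FGFR3 (ENSG00000068078.13, hg19 chr4:1795034-1810599), which is often mutated in bladder carcinoma, went the other way in 5637. It stood at 4.16, 3.50 and 3.79 CPM in NR neratinib, 2.70, 2.32 and 2.72 CPM in NR control, 20.8, 19.3 and 17.7 CPM in parental neratinib and 19.7, 19.6 and 20.1 CPM in parental control. The NR and parental values lay far apart, with a fold change of -2.95 ± 0.11, adjusted p = 2.2e-12 off the drug. On it the fold change was -2.36 ± 0.10, adjusted p = 1.9e-11. Neratinib raised it slightly in NR cells (0.44 (adjusted p = 0.0074)) and gave -0.15 (adjusted p = 0.18) in parental cells. OVCAR8 libraries held 18.4, 17.3 and 20.0 CPM in NR neratinib, 23.4, 22.7 and 21.6 CPM in NR control, 26.9, 31.8 and 26.1 CPM in parental neratinib and 32.1, 25.4 and 32.9 CPM in parental control. FGFR3 was lower in NR there too, at -0.46 (adjusted p = 0.011) off the drug (0.055 without NR control replicate 3) and -0.57 (adjusted p = 0.00095) on it, with no overlap between groups. The drug changes of -0.19 (adjusted p = 0.17) in parental and -0.30 (adjusted p = 0.18) in NR cells were called only without replicate 2, at -0.25 (adjusted p = 0.0079) and -0.31 (adjusted p = 0.0042).

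FGFR4 (ENSG00000160867.10, hg19 chr5:176513887-176525145), the receptor of the bile acid hormone FGF19, was near 1 CPM in parental 5637 cells and rose in 5637NR. Its levels were 7.69, 5.54 and 6.13 CPM in NR neratinib, 8.75, 8.87 and 10.3 CPM in NR control, 0.594, 0.498 and 0.467 CPM in parental neratinib and 1.07, 0.863 and 0.965 CPM in parental control. No NR value overlapped a parental one, with 3.25 ± 0.17, adjusted p = 1.5e-10 off the drug and 3.60 ± 0.19, adjusted p = 2.1e-10 on it. Neratinib lowered it in both states, at -1.0 (adjusted p = 0.0024) in parental and -0.65 (adjusted p = 0.0012) in NR cells. OVCAR8 levels of FGFR4 were 105, 99.4 and 103 CPM in NR neratinib, 158, 144 and 136 CPM in NR control, 80.8, 77.0 and 71.7 CPM in parental neratinib and 111, 142 and 108 CPM in parental control. Neratinib lowered FGFR4 in parental OVCAR8 cells (-0.76 ± 0.13, adjusted p = 0.0009). On the drug NR cells held more than parental cells (0.46 ± 0.13, adjusted p = 0.017), a call lost without any 1 of 4 libraries (adjusted p up to 0.067). Both other comparisons depended on replicate 2. NR control over parental control was 0.23 (adjusted p = 0.27) with it and 0.42 (adjusted p = 5.8e-06) without it, and NR neratinib over NR control was -0.52 (adjusted p = 0.071), and -0.53 (adjusted p = 1.2e-07) without it. FGFR2, the receptor of epithelial FGF7 and FGF10, averaged 31.2 ± 1.64 CPM against 54.1 ± 0.445 CPM in 5637 NR and parental control cells (-0.81 (adjusted p = 4.9e-08)), and OVCAR8 libraries held 0 to 9 counts of it. FGFR2 was lower in 5637 NR cells on the drug too. Neratinib moved it in opposite directions. In parental 5637 cells it was lower (-0.18, edgeR adjusted p = 0.039), a call lost without any 1 of 6 libraries (adjusted p up to 0.11). In NR 5637 cells it was called higher, at 41.7, 47.6 and 40.8 CPM against 30.3, 33.05 and 30.2 CPM.

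MET, the receptor of hepatocyte growth factor, changed little. In 5637 it averaged 502 ± 17.2 CPM against 547 ± 16.1 CPM in NR and parental control cells (-0.14 (adjusted p = 0.046)), a call lost without any 1 of 8 of the 12 libraries (adjusted p up to 0.16). In OVCAR8 it averaged 121 ± 3.69 CPM against 87.5 ± 27.7 CPM in the same groups (0.43 (adjusted p = 0.096)), and 0.22 (adjusted p = 0.0011) without replicate 2. On the drug, OVCAR8 NR and parental cells gave 0.21 (adjusted p = 0.33), and 0.20 (adjusted p = 0.00029) without that library. MST1R, the receptor of macrophage stimulating protein, was lower in NR cells of both lines, at -0.68 (adjusted p = 0.00032) in OVCAR8 and -0.43 (adjusted p = 0.0022) in 5637 off the drug, and -0.66 (adjusted p = 0.00011) and -0.40 (adjusted p = 0.0036) on it. Neratinib raised MST1R in parental OVCAR8 cells by 0.26 (adjusted p = 0.03), a call lost without any 1 of 4 libraries (adjusted p up to 0.1), and gave 0.28 (adjusted p = 0.15) in NR cells, 0.28 (adjusted p = 0.0063) without replicate 2.

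AXL, TYRO3 and MERTK share the ligand GAS6. AXL, often described in drug-tolerant cancer cells, was moderately higher in 5637 NR cells, at 591 ± 31.9 CPM against 469.9 ± 24.9 CPM off the drug (0.32 (adjusted p = 0.0006)) and 0.41 (adjusted p = 5.7e-05) on it. Neratinib gave -0.06 (adjusted p = 0.5) in parental and 0.04 (adjusted p = 0.7) in NR cells. In OVCAR8 it averaged 1015 ± 25.6 CPM against 822 ± 140.1 CPM in NR control and parental control cells (0.27 (adjusted p = 0.064)), and 0.17 (adjusted p = 0.0015) without replicate 2. Its increase on neratinib in parental OVCAR8 cells (0.24 (adjusted p = 0.045)) was lost without any 1 of 9 libraries (adjusted p up to 0.11). TYRO3 was lower in 5637 NR control cells (-0.25 (adjusted p = 0.0053)) and lower on neratinib in parental 5637 cells (-0.20 (adjusted p = 0.024)), the last call being lost without any 1 of 5 libraries (adjusted p up to 0.091). In OVCAR8 the TYRO3 changes of 0.15 (adjusted p = 0.32) for NR and 0.16 (adjusted p = 0.24) for the drug were called only without replicate 2, at 0.22 (adjusted p = 0.043) and 0.22 (adjusted p = 0.02).

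MERTK (ENSG00000153208.12, hg19 chr2:112656056-112787138), which clears dying cells as a receptor on phagocytes, was the TAM member that moved most. In 5637 it stood at 7.02, 8.74 and 6.98 CPM in NR neratinib, 8.06, 9.10 and 7.51 CPM in NR control, 3.84, 3.27 and 3.01 CPM in parental neratinib and 4.58, 5.55 and 5.32 CPM in parental control. NR libraries lay above parental ones in both conditions, by 0.66 ± 0.12, adjusted p = 0.00031 off the drug and 1.14 ± 0.13, adjusted p = 2e-06 on it. Neratinib lowered it in parental 5637 cells (-0.72 (adjusted p = 0.00036)) and gave -0.24 (adjusted p = 0.13) in NR cells. In OVCAR8 it stood at 18.1, 17.8 and 18.7 CPM in NR neratinib, 22.4, 19.9 and 22.1 CPM in NR control, 12.3, 12.5 and 12.3 CPM in parental neratinib and 15.6, 11.0 and 16.2 CPM in parental control. NR libraries were again higher without overlap, by 0.55 ± 0.10, adjusted p = 0.0046 off the drug and 0.59 ± 0.10, adjusted p = 0.001 on it. The decrease on the drug in parental OVCAR8 cells (-0.29 (adjusted p = 0.045)) was lost without any 1 of 11 libraries (adjusted p up to 0.15) and was -0.41 (adjusted p = 5.1e-05) without replicate 2. In NR cells the change of -0.26 (adjusted p = 0.28) was called only without replicate 2, at -0.27 (adjusted p = 0.003).

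The insulin receptor family feeds PI3K-AKT signalling from IGF1, IGF2 and insulin. IGF1R (ENSG00000140443.9, hg19 chr15:99192200-99507759) fell in 5637NR and rose on neratinib in both states of the line. Its 5637 levels were 152, 153 and 148 CPM in NR neratinib, 112, 108 and 103 CPM in NR control, 387, 392 and 395 CPM in parental neratinib and 268, 273 and 281 CPM in parental control. The 4 groups did not overlap at any point. The fold change of NR over parental cells was -1.36 ± 0.05, adjusted p = 1.9e-12 off the drug and -1.41 ± 0.05, adjusted p = 1.8e-12 on it. That of neratinib over control was 0.41 ± 0.05, adjusted p = 3.9e-06 in parental and 0.36 ± 0.05, adjusted p = 2.1e-05 in NR cells. OVCAR8 libraries held 87.0, 90.3 and 89.0 CPM in NR neratinib, 82.0, 84.2 and 85.6 CPM in NR control, 115, 116 and 125 CPM in parental neratinib and 92.0, 48.6 and 96.1 CPM in parental control. The 48.6 CPM of replicate 2 lay far below every other library, and the OVCAR8 results turn on it. NR control over parental control was 0.06 (adjusted p = 0.83) with replicate 2 and -0.16 (adjusted p = 0.015) without it. On the drug NR over parental was -0.39 (adjusted p = 0.091) with it and -0.39 (adjusted p = 4.5e-08) without it. Neratinib raised IGF1R in parental OVCAR8 cells by 0.51 (adjusted p = 0.031), and by 0.29 (adjusted p = 2.7e-05) without replicate 2, a call lost without any 1 of the 3 parental neratinib libraries (adjusted p up to 0.097). INSR was lower in 5637 NR control cells (-0.27 (adjusted p = 0.0032)) and higher in OVCAR8 NR control cells (0.46 (adjusted p = 0.011); 0.056 without NR control replicate 2). It rose on neratinib in parental OVCAR8 cells, at 26.1 ± 1.24 CPM against 14.8 ± 2.70 CPM on and off the drug (0.72 (adjusted p = 0.00021)). Replicate 2 held 11.8 CPM of INSR, beside 15.8 and 16.9 CPM in the other parental control libraries. On the drug, INSR in OVCAR8 NR over parental cells was -0.27 (adjusted p = 0.053), and -0.28 (adjusted p = 0.00045) without replicate 2.

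PDGFRB (ENSG00000113721.9, hg19 chr5:149493400-149535435), the receptor of PDGF-B and a marker of fibroblasts and pericytes, rose on neratinib in parental cells of both lines but went opposite ways with resistance. In 5637 it stood at 5.94, 4.21 and 4.67 CPM in NR neratinib, 1.91, 1.75 and 2.18 CPM in NR control, 2.19, 1.99 and 1.43 CPM in parental neratinib and 0.672, 0.715 and 0.871 CPM in parental control. It was low there, and NR neratinib libraries were the highest of the line. PDGFRB was higher in NR than in parental cells by 1.35 ± 0.22, adjusted p = 9.2e-05 off the drug and 1.38 ± 0.18, adjusted p = 9.7e-06 on it. The drug gave 1.19 (adjusted p = 0.00043) in parental and 1.22 (adjusted p = 8e-05) in NR cells. OVCAR8 libraries held 21.1, 18.7 and 19.6 CPM in NR neratinib, 19.6, 17.0 and 18.6 CPM in NR control, 47.8, 51.4 and 48.0 CPM in parental neratinib and 28.1, 17.9 and 27.2 CPM in parental control. Neratinib raised it in parental OVCAR8 cells (0.92 ± 0.12, adjusted p = 0.00015), while NR cells gave 0.09 (adjusted p = 0.84). On the drug, OVCAR8 NR cells held less than parental cells (-1.27 ± 0.12, adjusted p = 1.3e-05). Off it they did so at -0.44 (adjusted p = 0.037), a call lost without any 1 of 11 libraries (adjusted p up to 0.15). It was -0.58 (adjusted p = 9.9e-07) without replicate 2, the library at 17.9 CPM. The summed level of 6 fibroblast markers, PDGFRB among them, was 17.3 to 51.9 CPM over the OVCAR8 libraries, with DCN and COL3A1 below 1 CPM. KIT, CSF1R and PDGFRA, the other receptors of this family, stayed below 1 CPM, and CSF1R averaged 0.719 CPM in NR control against 0.243 CPM in parental control 5637 cells (1.55 (adjusted p = 0.00091)).

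**Figure D4:**
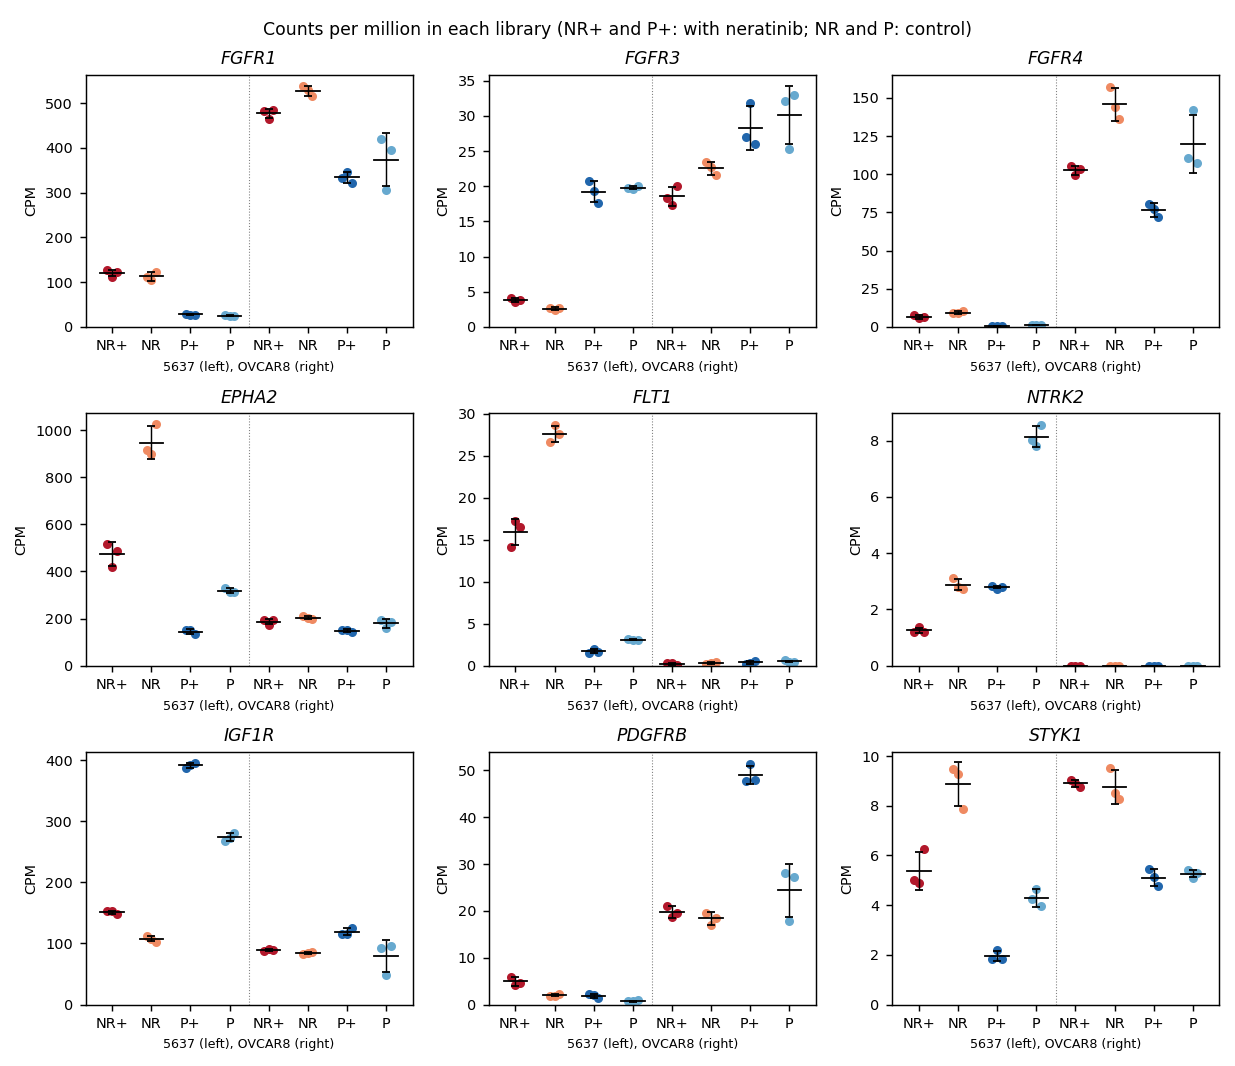
CPM of 9 members in each library of the 8 groups, points for libraries and bars for mean ± SD (n = 3), where NR+ and P+ are cells on neratinib. FGFR1, FGFR4, EPHA2 and FLT1 sit higher in 5637 NR than in parental cells, FGFR3 and IGF1R lower, and the low point of IGF1R in OVCAR8 parental control is replicate 2.

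FLT1 and KDR are receptors of VEGFA, and FLT4 is the receptor of VEGFC and VEGFD, and all 3 are known best from endothelium. FLT1 (ENSG00000102755.6, hg19 chr13:28874489-29069265) had one of the clearest differences between NR and parental 5637 cells. It stood at 14.1, 17.2 and 16.4 CPM in NR neratinib, 26.6, 28.6 and 27.6 CPM in NR control, 1.51, 1.99 and 1.66 CPM in parental neratinib and 3.16, 3.01 and 3.11 CPM in parental control. No NR library overlapped a parental one. FLT1 was higher in NR cells by 3.14 ± 0.10, adjusted p = 7.2e-13 off the drug. On it the difference was 3.17 ± 0.11, adjusted p = 2.2e-12. Neratinib lowered it, at -0.95 ± 0.12, adjusted p = 1.5e-05 in parental and -0.92 ± 0.09, adjusted p = 7.6e-07 in NR cells, also without overlap. In OVCAR8, FLT1 stayed at 0.110 to 0.624 CPM and none of the 4 comparisons called it.

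KDR (ENSG00000128052.8, hg19 chr4:55944644-55991756) was low, and was also higher in NR cells of 5637. In 5637 it stood at 0.439, 0.218 and 0.663 CPM in NR neratinib, 1.96, 1.55 and 1.42 CPM in NR control, 0.189, 0.0249 and 0.0701 CPM in parental neratinib and 0.249, 0.0986 and 0.165 CPM in parental control. The NR control libraries lay above all others, on 54 to 74 counts each against 4 to 10 in parental control libraries. KDR was higher in NR cells by 3.23 (adjusted p = 7.5e-06) off the drug and 2.19 (adjusted p = 0.0032) on it, and neratinib lowered it in NR cells, at -2.01 (adjusted p = 0.0004), with -0.97 (adjusted p = 0.24) in parental cells. OVCAR8 levels of KDR were 1.32, 1.90 and 1.68 CPM in NR neratinib, 2.19, 2.47 and 2.05 CPM in NR control, 0.678, 0.804 and 0.713 CPM in parental neratinib and 1.15, 0.725 and 1.57 CPM in parental control. NR over parental OVCAR8 was 0.91 (adjusted p = 0.023) off the drug, a call lost without any 1 of the 3 NR control libraries (adjusted p up to 0.083), and 1.19 (adjusted p = 0.0023) on it. The decrease on neratinib in parental OVCAR8 cells (-0.74 (adjusted p = 0.034)) was lost without any 1 of 6 libraries (adjusted p up to 0.15). FLT4 (ENSG00000037280.11, hg19 chr5:180028506-180076624) was an OVCAR8 gene, at 87.5, 83.0 and 88.1 CPM in NR neratinib, 104, 105 and 98.8 CPM in NR control, 88.2, 89.0 and 83.3 CPM in parental neratinib and 89.5, 73.6 and 86.3 CPM in parental control. NR control libraries were the highest group there, over parental control by 0.26 (adjusted p = 0.026), which was lost without any 1 of the 3 NR control libraries (adjusted p up to 0.1). Neratinib over control in NR OVCAR8 cells was -0.27 (adjusted p = 0.071), and -0.27 (adjusted p = 6.5e-05) without replicate 2. In 5637, FLT4 stood at 0.254, 0.355 and 0.186 CPM in NR neratinib, 0.239, 0.430 and 0.147 CPM in NR control, 0, 0.224 and 0.0701 CPM in parental neratinib and 0.124, 0.0493 and 0.0471 CPM in parental control, on 0 to 15 counts a library. Its NR over parental call off the drug (1.81 (adjusted p = 0.045)) was lost without any 1 of 6 libraries (adjusted p up to 0.19). TIE1 (ENSG00000066056.9, hg19 chr1:43766664-43788779), which modulates the angiopoietin receptor TEK, stood in OVCAR8 at 6.63, 5.97 and 7.12 CPM in NR neratinib, 9.86, 9.60 and 10.2 CPM in NR control, 15.9, 15.1 and 14.7 CPM in parental neratinib and 15.2, 14.0 and 14.5 CPM in parental control. The NR groups lay below the parental groups, at -0.60 (adjusted p = 0.00082) off the drug and -1.18 (adjusted p = 2.3e-06) on it, and neratinib lowered TIE1 further in NR cells (-0.61 (adjusted p = 0.0073)). In 5637 TIE1 stood at 0.300, 0.246 and 0.292 CPM in NR neratinib, 0.716, 0.803 and 0.514 CPM in NR control, 0.0811, 0.150 and 0.0701 CPM in parental neratinib and 0, 0.148 and 0.0471 CPM in parental control. NR over parental was 3.30 (adjusted p = 7e-05) off the drug and 1.42 (adjusted p = 0.04) on it, the last call lost without any 1 of 6 libraries (adjusted p up to 0.12). Neratinib lowered it in NR 5637 cells (-1.38 (adjusted p = 0.015)), which was lost without NR neratinib or NR control replicate 2 (adjusted p up to 0.064). The 6 endothelial markers, KDR among them, summed to 0.73 to 3.13 CPM over the 5637 libraries, and PECAM1, CDH5 and VWF were below 1 CPM.

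NTRK2 (ENSG00000148053.11, hg19 chr9:87283466-87638505), the receptor of brain-derived neurotrophic factor, fell in 5637 both with resistance and on the drug. It stood at 1.20, 1.37 and 1.19 CPM in NR neratinib, 3.10, 2.78 and 2.74 CPM in NR control, 2.84, 2.74 and 2.80 CPM in parental neratinib and 8.04, 7.82 and 8.54 CPM in parental control. NR control and parental neratinib libraries overlapped near 3 CPM, between the other groups. NR cells held less, at -1.51 ± 0.10, adjusted p = 6e-09 off the drug and -1.19 ± 0.13, adjusted p = 8.1e-07 on it. Neratinib over control was -1.65 ± 0.10, adjusted p = 5.7e-09 in parental and -1.32 ± 0.13, adjusted p = 7.6e-07 in NR cells. All 12 OVCAR8 libraries held 0 counts. RET (ENSG00000165731.13, hg19 chr10:43572475-43625799), which signals for GDNF ligands with GFRA co-receptors, stood at 0.208, 0.191 and 0.159 CPM in NR neratinib, 0.265, 0.373 and 0.269 CPM in NR control, 0, 0.0249 and 0 CPM in parental neratinib and 0, 0 and 0 CPM in parental control of 5637. NR control libraries held 10 to 13 counts and parental control libraries 0, so with a floor of 3 counts a library RET was at least 4.14-fold higher in NR control cells (adjusted p = 3.8e-05, edgeR). RET was also called higher in NR cells on the drug, on 6 to 9 counts a library against 0 to 1. In OVCAR8 it stood at 1.24, 1.66 and 1.19 CPM in NR neratinib, 0.886, 1.34 and 1.46 CPM in NR control, 1.44, 1.36 and 1.56 CPM in parental neratinib and 0.648, 0.493 and 1.00 CPM in parental control, and neratinib raised it in parental cells (0.92 (adjusted p = 0.018)), a call lost without parental neratinib replicate 3 or parental control replicate 1 (adjusted p up to 0.059).

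LTK and ROS1 are related to ALK, which stayed below 1 CPM. LTK (ENSG00000062524.11, hg19 chr15:41795836-41806085), a receptor of ALKAL peptides, stood in 5637 at 2.70, 1.58 and 2.28 CPM in NR neratinib, 1.06, 1.35 and 1.05 CPM in NR control, 0.351, 0.449 and 0.327 CPM in parental neratinib and 0.149, 0.123 and 0.0235 CPM in parental control. NR libraries lay above parental ones, and neratinib libraries above controls. NR over parental was 3.50 ± 0.40, adjusted p = 2e-06 off the drug, resting on 1 to 6 counts in parental control libraries, and 2.51 ± 0.29, adjusted p = 2.5e-06 on it. Neratinib raised LTK in parental (1.81 (adjusted p = 0.0059)) and NR cells (0.81 (adjusted p = 0.018), lost without any 1 of 3 libraries, adjusted p up to 0.088). ROS1 (ENSG00000047936.6, hg19 chr6:117609463-117747018), known in cancer from its gene fusions, stood at 4.92, 6.36 and 4.88 CPM in NR neratinib, 4.03, 2.87 and 2.96 CPM in NR control, 1.32, 1.57 and 1.38 CPM in parental neratinib and 2.56, 1.95 and 1.67 CPM in parental control of 5637. NR over parental was 0.66 (adjusted p = 0.0066) off the drug and 1.88 (adjusted p = 4.2e-07) on it. Neratinib lowered ROS1 in parental cells (-0.64 (adjusted p = 0.017)) and raised it in NR cells (0.59 (adjusted p = 0.013)), each call being lost without any 1 of 3 libraries (adjusted p up to 0.11 and 0.063). OVCAR8 libraries held 0.145 to 0.497 CPM of LTK and 0 to 0.461 CPM of ROS1.

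Among the receptors linked to WNT signalling, ROR1 (ENSG00000185483.7, hg19 chr1:64239693-64647181), which binds WNT5A, stood in 5637 at 15.4, 18.5 and 17.7 CPM in NR neratinib, 22.2, 21.0 and 21.9 CPM in NR control, 10.9, 12.3 and 11.1 CPM in parental neratinib and 16.3, 16.9 and 15.1 CPM in parental control. NR lay above parental in both conditions, by 0.42 (adjusted p = 0.00043) off the drug and 0.56 (adjusted p = 4.1e-05) on it, and neratinib lowered it in parental (-0.60 (adjusted p = 3.1e-05)) and NR cells (-0.46 (adjusted p = 0.00036)). OVCAR8 levels of ROR1 were 1.56, 2.23 and 2.05 CPM in NR neratinib, 1.73, 1.72 and 1.97 CPM in NR control, 0.876, 0.804 and 0.973 CPM in parental neratinib and 1.44, 0.261 and 0.979 CPM in parental control. On the drug it was higher in OVCAR8 NR cells (1.18 (adjusted p = 0.021)), a call lost without any 1 of 5 libraries (adjusted p up to 0.08), and off it NR over parental was 0.96 (adjusted p = 0.11). ROR2 fell in 5637 NR control cells (-0.40 (adjusted p = 0.0041)) and rose in OVCAR8 NR control cells (0.45 (adjusted p = 0.011); up to 0.053 without NR control replicate 1 or 3). Neratinib raised ROR2 in parental 5637 cells (0.28, edgeR adjusted p = 0.034), a call lost without any 1 of 5 libraries (adjusted p up to 0.12). PTK7, a pseudokinase of planar cell polarity, was lower in NR cells on the drug in both lines, at -0.46 (adjusted p = 0.00021) in OVCAR8 and -0.27 (adjusted p = 0.0032) in 5637. Off the drug it was lower in 5637 NR cells (-0.40 (adjusted p = 0.00011)), and in OVCAR8 NR over parental was -0.20 (adjusted p = 0.063), and -0.24 (adjusted p = 0.0001) without replicate 2. Neratinib raised PTK7 in parental OVCAR8 cells (0.22, edgeR adjusted p = 0.018), a call lost without parental neratinib replicate 1 or 2 (adjusted p = 0.062). In NR 5637 cells PTK7 rose by 0.19 (edgeR adjusted p = 0.033), lost without any 1 of 5 libraries (adjusted p up to 0.14). RYK, another pseudokinase, was called in 1 comparison within a line, as lower on neratinib in parental 5637 cells (-0.18 (adjusted p = 0.028)), and that call was lost without any 1 of 4 libraries (adjusted p up to 0.11). In NR OVCAR8 cells the drug gave 0.15 (adjusted p = 0.3) for RYK, and 0.14 (adjusted p = 0.017) without replicate 2.

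DDR1 and DDR2 are collagen receptors. DDR2 (ENSG00000162733.12, hg19 chr1:162601163-162757190) stood in OVCAR8 at 2.01, 2.79 and 2.18 CPM in NR neratinib, 2.21, 2.14 and 2.31 CPM in NR control, 5.23, 4.79 and 4.32 CPM in parental neratinib and 2.57, 1.77 and 2.08 CPM in parental control. Parental neratinib libraries lay above all others. Neratinib raised it in parental OVCAR8 cells (1.06 ± 0.15, adjusted p = 0.00027) but gave 0.05 (adjusted p = 0.94) in NR cells, and on the drug NR over parental was -1.0 ± 0.15, adjusted p = 0.00034. In 5637 it stood at 0.485, 1.04 and 0.557 CPM in NR neratinib, 1.14, 0.631 and 0.905 CPM in NR control, 0.730, 0.773 and 0.794 CPM in parental neratinib and 0.846, 1.48 and 0.965 CPM in parental control, with no comparison called. DDR1 is held under 5 entries. That on chromosome 6 held 0.761 to 1.09 CPM per group in 5637, and a copy on an alternative contig held most reads, so the level of DDR1 depends on which entry is read. Summed over its entries, an alternative chosen after the data were seen, DDR1 averaged 23.8 ± 1.51 CPM in NR control and 29.1 ± 0.792 CPM in parental control 5637 cells (-0.31 ± 0.08, adjusted p = 0.0055), where the chromosome 6 entry alone gave no call. In OVCAR8 the sum averaged 11.2 ± 0.812 CPM in NR neratinib, 16.7 ± 0.937 CPM in parental neratinib and 12.2 ± 0.906 CPM in parental control cells. NR over parental on the drug was -0.54 ± 0.10 (adjusted p = 0.0019), and neratinib over control in parental cells 0.34 ± 0.10 (adjusted p = 0.023).

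EPHA receptors bind ephrins that are held on neighbouring cells. EPHA2 (ENSG00000142627.9, hg19 chr1:16450832-16482582), the promoter of which is shown above, was abundant in 5637 and changed by over 2-fold with resistance and with the drug. It stood at 518, 419.9 and 485 CPM in NR neratinib, 916, 898 and 1026 CPM in NR control, 151, 149.6 and 134 CPM in parental neratinib and 331, 312 and 313 CPM in parental control. The 4 groups did not overlap, and NR control libraries were the highest. EPHA2 was higher in NR cells by 1.56 ± 0.08, adjusted p = 3e-10 off the drug and 1.68 ± 0.08, adjusted p = 1.5e-10 on it. Neratinib lowered it, at -1.24 ± 0.08, adjusted p = 1.1e-08 in parental and -1.12 ± 0.08, adjusted p = 4.1e-08 in NR cells. OVCAR8 libraries held 192, 174 and 193 CPM in NR neratinib, 212, 202 and 199 CPM in NR control, 153, 149.9 and 142 CPM in parental neratinib and 195, 159.7 and 185 CPM in parental control. There neratinib lowered it in parental cells (-0.37 (adjusted p = 0.0018)), NR cells held more on the drug (0.36 (adjusted p = 0.002)), and NR over parental off it was 0.14 (adjusted p = 0.21). The drug change in OVCAR8 NR cells was -0.15 (adjusted p = 0.37), and -0.16 (adjusted p = 0.011) without replicate 2.

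EPHA4 (ENSG00000116106.7, hg19 chr2:222282747-222438922), a receptor of axon guidance, went the other way with resistance in 5637. It stood at 6.91, 7.51 and 6.87 CPM in NR neratinib, 7.47, 7.40 and 6.97 CPM in NR control, 24.0, 23.5 and 25.3 CPM in parental neratinib and 21.5, 23.3 and 22.5 CPM in parental control. Every NR library lay below every parental one, at -1.64 ± 0.08, adjusted p = 4.4e-11 off the drug and -1.81 ± 0.08, adjusted p = 1.6e-11 on it, and neratinib gave 0.01 (adjusted p = 0.95) in parental and -0.16 (adjusted p = 0.12) in NR cells. In OVCAR8 it stood at 2.31, 2.48 and 3.15 CPM in NR neratinib, 2.82, 2.89 and 2.54 CPM in NR control, 3.39, 2.89 and 3.89 CPM in parental neratinib and 2.93, 1.68 and 3.21 CPM in parental control, with no comparison called. EPHA5 (ENSG00000145242.9, hg19 chr4:66185281-66536213) was low in OVCAR8, at 1.56, 2.06 and 2.54 CPM in NR neratinib, 2.63, 2.31 and 2.95 CPM in NR control, 1.75, 1.36 and 1.30 CPM in parental neratinib and 1.10, 0.377 and 1.25 CPM in parental control, and higher in NR control than in parental control cells (1.48 ± 0.30, adjusted p = 0.008). Replicate 2 was the parental control library at 0.377 CPM. On the drug NR over parental EPHA5 was 0.53 (adjusted p = 0.18), and 0.53 (adjusted p = 0.018) without replicate 2. In 5637 it stayed at 0.0265 to 0.299 CPM. EPHA1 was lower on neratinib in parental (-0.39 (adjusted p = 0.00041)) and NR 5637 cells (-0.23 (adjusted p = 0.018)), the last call lost without any 1 of 3 libraries (adjusted p up to 0.075). EPHA3 held 0 to 2 counts in NR control and 28 to 43 in parental control 5637 libraries (adjusted p = 3.7e-07, edgeR), below 1 CPM in both. EPHA7, also below 1 CPM, gave 0.86 (adjusted p = 0.27) for the drug and 0.82 (adjusted p = 0.38) for NR off the drug in OVCAR8, and 1.81 (adjusted p = 0.012) and 1.76 (adjusted p = 0.036) without replicate 2.

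The EPHB receptors were lower in 5637 NR cells off the drug, all 4 that were tested. EPHB3 (ENSG00000182580.2, hg19 chr3:184279572-184300197), which sets cell position in intestinal crypts of mice, stood in 5637 at 1.62, 1.48 and 1.09 CPM in NR neratinib, 1.80, 2.01 and 1.59 CPM in NR control, 11.2, 11.9 and 11.3 CPM in parental neratinib and 10.6, 11.4 and 11.8 CPM in parental control. NR and parental libraries did not overlap, at -2.66 ± 0.13, adjusted p = 8.4e-11 off the drug and -3.06 ± 0.13, adjusted p = 2.5e-11 on it, and the decrease on neratinib in NR cells (-0.48 (adjusted p = 0.025)) was lost without any 1 of 3 libraries (adjusted p up to 0.16). OVCAR8 libraries held 3.44, 3.40 and 4.01 CPM in NR neratinib, 4.73, 4.74 and 5.15 CPM in NR control, 3.39, 2.45 and 2.98 CPM in parental neratinib and 4.49, 5.86 and 4.67 CPM in parental control, and neratinib lowered EPHB3 in parental cells (-0.87 ± 0.16, adjusted p = 0.0018), with NR cells at -0.45 (adjusted p = 0.23), and -0.46 (adjusted p = 0.0099) without replicate 2. NR over parental on the drug was 0.34 (adjusted p = 0.14) there, and 0.34 (adjusted p = 0.028) without that library. EPHB6 (ENSG00000106123.7, hg19 chr7:142552792-142568847), which has no active kinase, stood in 5637 at 2.40, 1.94 and 2.17 CPM in NR neratinib, 1.88, 1.69 and 2.10 CPM in NR control, 4.86, 5.08 and 4.09 CPM in parental neratinib and 4.13, 3.35 and 4.42 CPM in parental control. EPHB6 was lower in NR cells, at -1.08 ± 0.16, adjusted p = 2.4e-05 off the drug and -1.13 ± 0.15, adjusted p = 1e-05 on it, and at -1.09 and -1.04 with its entries summed. OVCAR8 held 0.155 to 0.990 CPM.

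EPHB2 and EPHB4 were abundant and moved less. EPHB2, a receptor of ephrin-B ligands, averaged 212 ± 6.82 CPM against 274 ± 8.84 CPM in NR and parental control 5637 cells (-0.38 (adjusted p = 6.8e-05)), and rose on neratinib in parental (0.24 (adjusted p = 0.0051)) and NR cells (0.29 (adjusted p = 0.0014)). In OVCAR8 its drug change in parental cells was -0.13 (adjusted p = 0.22), and -0.21 (adjusted p = 0.002) without replicate 2, and NR over parental on the drug was 0.19 (adjusted p = 0.098), and 0.18 (adjusted p = 0.0027) without it. EPHB4, the venous receptor of ephrin-B2, was lower in 5637 NR cells off the drug (-0.21 (adjusted p = 0.026); lost without any 1 of 4 libraries, adjusted p up to 0.11) and on it (-0.37 (adjusted p = 0.00054)). In OVCAR8 EPHB4 was lower in NR cells on the drug (-0.25 (adjusted p = 0.042)), a call lost without any 1 of 9 libraries (adjusted p up to 0.15). Its drug change in parental cells was 0.09 (adjusted p = 0.48), and 0.19 (adjusted p = 0.0019) without replicate 2. EPHB1 was read in OVCAR8 only, where on the drug it averaged 9.44 ± 0.702 CPM against 14.4 ± 0.953 CPM in NR and parental cells (-0.57 (adjusted p = 0.0082)). Its drug change in NR OVCAR8 cells was -0.42 (adjusted p = 0.19), and -0.42 (adjusted p = 0.00063) without replicate 2.

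STYK1 (ENSG00000060140.4, hg19 chr12:10771538-10826917) and LMTK2 are kinases placed with the receptor families by sequence. STYK1 stood in 5637 at 5.01, 4.89 and 6.26 CPM in NR neratinib, 9.46, 9.30 and 7.85 CPM in NR control, 1.84, 2.19 and 1.84 CPM in parental neratinib and 4.26, 4.66 and 3.95 CPM in parental control. NR lay above parental in both conditions, by 1.03 ± 0.12, adjusted p = 2.3e-06 off the drug and 1.42 ± 0.14, adjusted p = 2.5e-07 on it. Neratinib lowered it, at -1.24 (adjusted p = 2.6e-06) in parental and -0.84 (adjusted p = 4.1e-05) in NR cells. OVCAR8 libraries held 9.02, 8.91 and 8.77 CPM in NR neratinib, 9.54, 8.51 and 8.26 CPM in NR control, 5.45, 5.12 and 4.76 CPM in parental neratinib and 5.40, 5.10 and 5.31 CPM in parental control. NR was higher there too, by 0.69 ± 0.09, adjusted p = 0.00056 off the drug and 0.84 ± 0.09, adjusted p = 4.2e-05 on it, with drug changes of -0.15 (adjusted p = 0.27) in parental and 0.00 (adjusted p = 1) in NR cells. LMTK2 was lower on neratinib in parental (-0.28 (adjusted p = 0.001)) and NR 5637 cells (-0.41 (adjusted p = 5e-05)), and its NR over parental call off the drug (0.15 (adjusted p = 0.038)) was lost without any 1 of 8 libraries (adjusted p up to 0.14). In parental OVCAR8 cells the drug gave 0.11 (adjusted p = 0.79) for LMTK2, and -0.23 (adjusted p = 0.0024) without replicate 2, which held 19.1 CPM beside 56.1 and 54.5 CPM. In NR OVCAR8 cells it gave -0.16 (adjusted p = 0.88), and -0.17 (adjusted p = 0.023) without that library.

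Whether the drug effect differed between resistant and parental cells was tested as an interaction (NR effect minus parental effect). In 5637, 4 of 40 members were called higher and 1 lower, beside 13.9% of all genes. FGFR2 (0.53 ± 0.09, adjusted p = 0.0014), FGFR3 (0.59 ± 0.15, adjusted p = 0.014), TYRO3 (0.34 ± 0.10, adjusted p = 0.025) and ROS1 (1.22 ± 0.27, adjusted p = 0.0057) had higher drug effects in NR cells, and CSF1R, below 1 CPM, a lower one (-1.56 (adjusted p = 0.036)). That count was 3 without NR control replicate 1, parental neratinib replicate 1 or 2, or parental control replicate 1, and TYRO3 was lost without any 1 of 6 libraries (adjusted p up to 0.072). In OVCAR8, 4 of 36 were called, as lower, beside 8.83% of all genes called and 4.21% called lower. They were INSR (-0.73 ± 0.14, adjusted p = 0.008), PDGFRB (-0.83 ± 0.17, adjusted p = 0.011), DDR2 (-1.01 ± 0.22, adjusted p = 0.014) and TIE1 (-0.57 ± 0.12, adjusted p = 0.014). DESeq2 called 6 members in OVCAR8, and without replicate 2 edgeR called 4 higher and 10 lower, beside 32.8% of all genes, adding FGFR1, RYK, EPHA2 and EPHB2 as higher and AXL, IGF1R, FLT4, PTK7, EPHB1 and EPHB4 as lower.

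The lines themselves differed in most members. In parental control cells 16 of 42 tested members were higher and 24 lower in OVCAR8 than in 5637, beside 72% of all 20250 genes called. Without replicate 2 the same numbers were called, beside 72.8% of all genes. FGFR4 (6.96 (adjusted p = 2.4e-20)), TIE1 (7.74 (adjusted p = 3.8e-18)), EPHB1 (6.48 (adjusted p = 1.9e-15)), PDGFRB (5.0 (adjusted p = 2.8e-17)) and FGFR1 (3.88 (adjusted p = 7.7e-21)) were higher in OVCAR8. EPHA1 (-6.54 (adjusted p = 1.6e-21)), ROS1 (-4.42 (adjusted p = 3.1e-08)), ROR1 (-4.14 (adjusted p = 3.7e-14)), EPHA4 (-3.10 (adjusted p = 2.1e-15)) and MET (-2.66 (adjusted p = 4.1e-15)) were lower. NTRK2, with 0 counts in OVCAR8, was at least 105-fold lower there than its 8.13 CPM in parental control 5637 cells.

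Differences in effect between the lines were tested in 1 fit of all 24 libraries. The NR effect off the drug, OVCAR8 minus 5637, was called higher for 12 and lower for 10 members, beside 32.9% of all genes, and for 12 and 12 without replicate 2, beside 39.1%. It was lower for FGFR1 (-1.71 (adjusted p = 5e-11)), FGFR4 (-3.04 (adjusted p = 9.8e-11)), EPHA2 (-1.43 (adjusted p = 1.7e-09)), PDGFRB (-1.82 (adjusted p = 5.2e-06)) and KDR (-2.34 (adjusted p = 0.00048)), and higher for FGFR3 (2.47 (adjusted p = 5.9e-12)), EPHB3 (2.56 (adjusted p = 1.8e-09)), EPHA4 (1.65 (adjusted p = 9.1e-07)) and IGF1R (1.40 (adjusted p = 1e-06)). The parental drug effect, OVCAR8 minus 5637, was called higher for 5 members and lower for 2, beside 10.3% of all genes, and for 7 and 3 without replicate 2, beside 18.6%. DDR2 (1.67 (adjusted p = 0.0015)), STYK1 (1.08 (adjusted p = 8.5e-05)) and EPHA2 (0.86 (adjusted p = 2.6e-05)) were higher by it, and EPHB3 (-0.80 (adjusted p = 0.011)) lower. Among 34 members tested in both lines, those called alike for NR over parental on the drug were FGFR1, FGFR4, MERTK, KDR, ROR1, EPHA2 and STYK1 as higher (7 of 7 called higher in OVCAR8 and of 13 in 5637) and FGFR3, MST1R, PTK7 and EPHB4 as lower (4 of 7 in OVCAR8 and of 12 in 5637), while PDGFRB and TIE1 were lower in OVCAR8 and higher in 5637. Over all 16246 genes tested in both lines, 52.6% of those called higher in OVCAR8 were also called higher in 5637, and 44% of those called lower in OVCAR8 were also called lower in 5637. Without replicate 2 the shared calls were 7 of 10 higher and 6 of 9 lower in OVCAR8, beside 44.8% and 43.1% over all genes. That fit added IGF1R and INSR as lower in both lines, and EPHB2 and EPHB3 as higher in OVCAR8 and lower in 5637.

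The partners of these receptors were read from 4 lists. Of 41 ligand genes tested in 5637, 17 were higher and 11 lower in NR control than in parental control cells (median 0.07, beside 0.00 over all genes and 56.5% of all genes called). On neratinib 13 were higher and 13 lower in parental cells (median 0.07, beside 0.02 and 47.3%). VEGFA, the ligand of FLT1 and KDR, averaged 131 ± 7.66 CPM against 25.1 ± 1.08 CPM in NR control and parental control 5637 cells (2.36 ± 0.08, adjusted p = 8.1e-13), and PDGFB, the ligand of PDGFRB, 69.8 ± 2.15 CPM against 14.2 ± 0.319 CPM (2.29 ± 0.08, adjusted p = 1.4e-12). Neratinib raised both in parental 5637 cells, VEGFA by 1.36 ± 0.08, adjusted p = 1.3e-09 and PDGFB by 0.94 ± 0.08, adjusted p = 1.2e-07, and in parental OVCAR8 cells, VEGFA by 1.87 ± 0.08, adjusted p = 5.3e-08 and PDGFB by 1.41 ± 0.10, adjusted p = 1.8e-06. In NR 5637 cells VEGFA was lower on the drug (-0.85 ± 0.07, adjusted p = 2.4e-07). In OVCAR8, 5 of 44 ligands were higher and 10 lower in NR control cells (median -0.27, beside -0.01 and 9.84% of all genes called), and 6 and 14 without replicate 2 (beside 22.8%). FGF5 was higher at 127 ± 1.10 CPM against 32.3 ± 9.73 CPM (1.94 ± 0.14, adjusted p = 4.3e-06) there and PDGFB lower at 3.51 ± 0.379 CPM against 10.3 ± 0.308 CPM (-1.61 ± 0.10, adjusted p = 1.9e-06). On neratinib 10 of these 44 were higher and 7 lower in parental OVCAR8 cells (median -0.03, beside 0.01 and 32.5%), and 14 and 10 without replicate 2 (median 0.03, beside 49.2%).

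Co-receptors and binding proteins also differed by line. Of 22 tested in 5637, 9 were higher and 8 lower in NR control cells (median -0.05, beside 0.00 and 56.5% of all genes called), and 5 were higher and 11 lower on neratinib in parental cells (median -0.24, beside 0.02 and 47.3%). NRP2, a co-receptor of VEGF, was lower in 5637 NR control cells at 27.1 ± 1.27 CPM against 85.0 ± 1.22 CPM (-1.66 ± 0.06, adjusted p = 4.8e-12) and higher in OVCAR8 NR control cells at 11.7 ± 1.23 CPM against 2.76 ± 0.430 CPM (2.03 ± 0.14, adjusted p = 3.3e-06). IGFBP3, which binds IGF1 and IGF2, rose on neratinib in NR 5637 cells to 668 ± 16.0 CPM against 145 ± 4.59 CPM in NR control (2.08 ± 0.05, adjusted p = 7.5e-14), and IGFBP4 was lower there at 297 ± 23.2 CPM against 896 ± 57.6 CPM (-1.72 ± 0.08, adjusted p = 1.2e-10). Of 39 adaptors, ubiquitin ligases and phosphatases, 15 were higher and 9 lower in 5637 NR control cells (median 0.08, beside 56.5% of all genes called), and 13 were higher and 8 lower on neratinib in parental 5637 cells (median 0.06, beside 47.3%), shares near those of all genes. GRB10, an adaptor of IGF1R and INSR, was lower in 5637 NR control cells (-1.10 ± 0.06, adjusted p = 1.7e-10) and rose on neratinib in parental 5637 (0.95 ± 0.05, adjusted p = 1.8e-09) and OVCAR8 cells (1.47 ± 0.14, adjusted p = 2.2e-05). Of 12 sheddases and their inhibitors, 6 were higher and 2 lower in 5637 NR control cells (median 0.13, beside 56.5%), ADAM9 at 294 ± 13 CPM against 140.0 ± 7.32 CPM (1.06 ± 0.06, adjusted p = 4.9e-10). In OVCAR8 NR control cells 2 of 20 co-receptors were higher and 6 lower, and 2 of 39 adaptors higher and 3 lower, beside 9.84% of all genes. Without replicate 2 these counts were 5 and 8 for the co-receptors and 5 and 8 for the adaptors, beside 22.8%. On neratinib, parental OVCAR8 cells held 5 of 20 co-receptors higher and 3 lower, 9 of 39 adaptors higher and 4 lower (median 0.12), and 4 of 11 sheddases higher and 1 lower, beside 32.5%. Without replicate 2 they were 8 and 5, 11 and 13 (median -0.02), and 4 and 2, beside 49.2%, so the balance of the adaptors turns on that library.

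**Figure D5:**
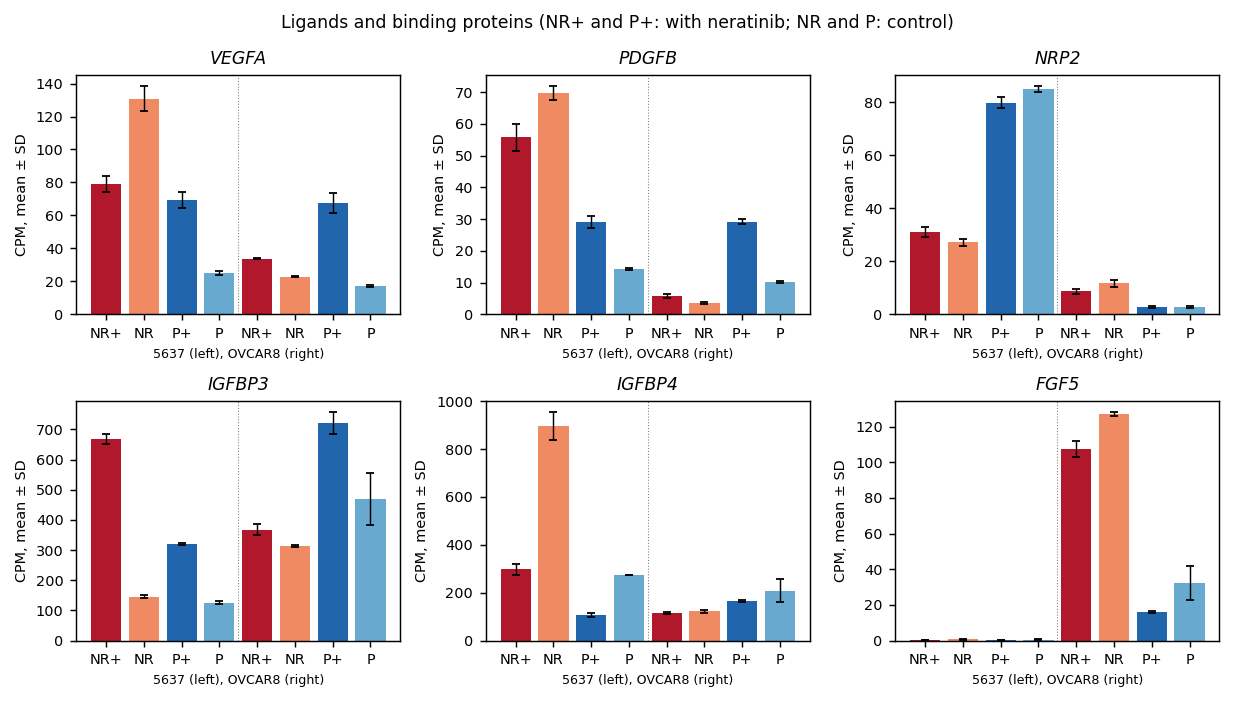
Mean CPM ± SD (n = 3) of VEGFA, PDGFB, NRP2, IGFBP3, IGFBP4 and FGF5 in the 8 groups, on linear axes from 0. VEGFA and PDGFB stand higher on neratinib than in control in parental cells of both lines, NRP2 is lower in 5637 NR and higher in OVCAR8 NR than in parental cells, and FGF5 is high in OVCAR8 NR cells.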

How the data were processed

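Stranded TruSeq mRNA libraries (24) were read paired-end, per the labels' protocols. The build hg19 and the tools STAR 2.5.3a, featureCounts 1.15.2, DESeq2 1.18.1 and FastQC are named, per the submitters' processing notes. Whether counting used strand is not given in the sources used here, so antisense partners cannot be told apart. The deposited table holds the authors' raw counts per gene for 39786 genes. A symbol with several entries was read from its chromosome entry, and DDR1 and EPHB6 also from summed entries.

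Libraries were grouped by line, state and treatment as labelled. CPM is over the library total, RPKM also per gene length. Genes passing filterByExpr (18307 in 5637, 18072 in OVCAR8, 20250 over both) were scaled by TMM and tested with edgeR 4.0.16 (quasi-likelihood, R 4.3.3), 12 libraries per line with 4 group means and 8 residual degrees of freedom, with Benjamini-Hochberg adjustment across every gene tested and a threshold of 0.05. CPM ratios differ from fitted fold changes by the TMM scaling. Of the members, 40 passed the filter in 5637 (not ALK, TEK, EPHA5 and EPHB1), 36 in OVCAR8 (not FGFR2, PDGFRA, KIT, NTRK2, DDR1, ALK, ROS1 and TEK) and 42 over both. The fit was also run on simulated counts with a fixed spread and no library that stood apart. That run does not bear on the effect of replicate 2.

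Members expressed at 1 CPM or more and called at 2-fold or more within a line are given with every library's value. Of the partner lists, up to 3 called genes in each direction with the largest change and at least 5 CPM were eligible to be named. Members and lists were chosen with earlier results of these data known. Alternatives were DESeq2 1.42.0, its size factors in edgeR, library size only, no filter, a block for replicate number, and fits without each library in turn.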

Additional observations from a re-analysis of the deposited data

Results flagged for a closer look

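Effects of the same contrast differed between cell states or lines, by the interaction test of edgeR, for the 29 results listed here. Those between lines are for members expressed in both lines. Groups of 3 libraries are too small for the check of single outlying libraries, and no cause was tested. The drug effect was higher in NR than in parental 5637 cells for FGFR2 (0.53 (adjusted p = 0.0014)), FGFR3 (0.59 (adjusted p = 0.014)), TYRO3 (0.34 (adjusted p = 0.025)) and ROS1 (1.22 (adjusted p = 0.0057)), in log2 units. It was lower in NR than in parental OVCAR8 cells for INSR (-0.73 (adjusted p = 0.008)), PDGFRB (-0.83 (adjusted p = 0.011)), DDR2 (-1.01 (adjusted p = 0.014)) and TIE1 (-0.57 (adjusted p = 0.014)).

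The parental drug effect was higher in OVCAR8 than in 5637 for MST1R (0.46 (adjusted p = 0.043)), INSR (0.61 (adjusted p = 0.0013)), DDR2 (1.67 (adjusted p = 0.0015)), EPHA2 (0.86 (adjusted p = 2.6e-05)) and STYK1 (1.08 (adjusted p = 8.5e-05)). It was lower for EPHB2 (-0.38 (adjusted p = 0.023)) and EPHB3 (-0.80 (adjusted p = 0.011)). The calls of MST1R and EPHB2 were lost without any 1 of 10 and 8 of the 24 libraries (adjusted p up to 0.11 and 0.1).

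The NR effect off the drug was higher in OVCAR8 than in 5637 for FGFR3 (2.47 (adjusted p = 5.9e-12)), EPHB3 (2.56 (adjusted p = 1.8e-09)), EPHA4 (1.65 (adjusted p = 9.1e-07)), IGF1R (1.40 (adjusted p = 1e-06)), ROR2 (0.82 (adjusted p = 0.00015)), INSR (0.71 (adjusted p = 6e-05)), MET (0.55 (adjusted p = 0.014)), EPHB2 (0.42 (adjusted p = 0.0037)) and TYRO3 (0.38 (adjusted p = 0.015)). It was lower for FGFR4 (-3.04 (adjusted p = 9.8e-11)), KDR (-2.34 (adjusted p = 0.00048)), PDGFRB (-1.82 (adjusted p = 5.2e-06)), FGFR1 (-1.71 (adjusted p = 5e-11)) and EPHA2 (-1.43 (adjusted p = 1.7e-09)). Of the 22 members called for this effect, those not expressed in both lines are left out. Among them, FLT1, FLT4, TIE1 and RET were called lower, and DDR1, by its chromosome 6 entry, higher. Summed over its entries, DDR1 was not called for this effect, at 0.02 ± 0.14 (adjusted p = 0.98, edgeR). The calls of FLT4 and DDR1 were lost without any 1 of 4 and 13 of the 24 libraries (adjusted p up to 0.19 and 0.18).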

How the results depend on the processing

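Of 5412 alternative values for 254 member results, 5098 kept direction and call, 65 gained a call, 246 lost one and 3 reversed. All 3 reversals came without OVCAR8 parental control replicate 2: LMTK2 on neratinib in parental OVCAR8 cells at -0.23 (adjusted p = 0.0024), against 0.11 with every library and up to 0.31 without another, IGF1R in NR over parental control cells at -0.16 (adjusted p = 0.015), against 0.06 and up to 0.21, and LMTK2 in the NR effect off the drug, OVCAR8 minus 5637, at -0.25 (adjusted p = 0.021), against 0.08 and up to 0.3. With that library the OVCAR8 libraries had a biological coefficient of variation of 13%, against 4.37% without it and 8.03% in 5637; the cause was not tested. Without the filter, 9 members were called on neratinib in parental OVCAR8 cells, against 14. In NR OVCAR8 cells 1 was called on neratinib, against 4 by DESeq2, 2 scaled by library size only and 2 without the filter. Leaving out each library in turn, members called in 5637 numbered 13 to 19 for the parental drug effect, 29 to 33 for NR off the drug, 17 to 21 for the NR drug effect, 28 to 31 for NR on the drug and 3 to 5 for the interaction. In OVCAR8 they numbered 7 to 20, 7 to 19, 0 to 12, 12 to 21 and 4 to 14, and with replicate 2 kept 7 to 13, 7 to 14, 0 to 1, 12 to 16 and 4. Between lines they were 36 to 40 for the parental controls, 5 to 10 for the drug effect and 20 to 24 for the NR effect. Scaling by library size alone moved the median of all genes to 0.13 for the parental drug effect in 5637, 0.12 in NR 5637 and 0.11 in parental OVCAR8 cells (log2), and lost 11 member calls without a reversal. Replicate numbers did not pair the libraries, since same-numbered libraries deviated together at a median r of -0.125 in 5637 and 0.015 in OVCAR8. Of 18 such correlations in each line, 6 passed 0.1. In 5637, 5 of the 18 were the highest that the library had with the 3 replicates of the other group, and in OVCAR8 7. With replicate number as a block, 18, 32, 20, 29 and 4 members were called in 5637, 11, 11, 1, 14 and 4 in OVCAR8, in the order above, and 38, 7 and 21 between lines. At totals of 23.8 to 48.5 M counts, changes in RET, KDR, TIE1, FLT4 and LTK in 5637 rest on a few counts a library.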

Other observations

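Other partner genes of the receptors moved by more than 2-fold in 5637. In NR control over parental control cells, NTF4, a ligand of NTRK2, was at 0.442 ± 0.147 CPM against 5.81 ± 0.403 CPM (-3.70 ± 0.18, adjusted p = 9.6e-11), ARTN, a ligand of RET complexes, at 8.10 ± 1.10 CPM against 27.7 ± 2.26 CPM (-1.79 ± 0.12, adjusted p = 2.9e-09), and PGF, a ligand of FLT1, at 5.63 ± 0.448 CPM against 1.98 ± 0.205 CPM (1.50 ± 0.20, adjusted p = 8.5e-06). CBLC, a ubiquitin ligase, was at 8.35 ± 1.38 CPM against 36.0 ± 0.623 CPM (-2.12 ± 0.14, adjusted p = 5e-09), and the adaptor SH2B3 at 90.4 ± 3.66 CPM against 23.4 ± 0.663 CPM (1.94 ± 0.07, adjusted p = 2.1e-12). On neratinib, parental 5637 cells held IRS1, the docking protein of IGF1R and INSR, at 42.1 ± 3.22 CPM against 99.7 ± 1.67 CPM (-1.35 ± 0.09, adjusted p = 5.9e-09), and the metalloprotease inhibitor TIMP1 at 3.29 ± 0.631 CPM against 17.1 ± 0.982 CPM (-2.48 ± 0.13, adjusted p = 6.6e-10).

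In OVCAR8, NR control over parental control cells held IGF2, a ligand of IGF1R, at 0.713 ± 0.294 CPM against 5.12 ± 0.697 CPM (-2.81 ± 0.37, adjusted p = 0.00045), and GDNF, a ligand of RET complexes, at 6.62 ± 0.621 CPM against 1.73 ± 0.275 CPM (1.88 ± 0.13, adjusted p = 3.4e-06). On the drug, FGF5 was at 107 ± 4.50 CPM against 16.2 ± 0.439 CPM in NR and parental OVCAR8 cells (2.77 ± 0.15, adjusted p = 1.9e-07) and PDGFB at 5.82 ± 0.578 CPM against 29.2 ± 0.904 CPM (-2.29 ± 0.10, adjusted p = 4.5e-08). These adjusted p-values are from edgeR, and the genes were named by the rule for the partner lists.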
